A study of Mus musculus with 6 samples.

Results

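The genes described here are 37 genes of protein folding in the endoplasmic reticulum (ER) and of the unfolded protein response, taken by symbol from a table of 24391 genes. All 37 were found and all passed the filter on low counts. Their RNA was read by poly(A) RNA sequencing of Neuro2a, a cell line from a mouse neuroblastoma, in 3 vehicle-treated control cultures and 3 cultures treated with 5 mM D-serine. In both groups the growth medium had been replaced by one that the labels write as D-MEM(-SG), with 10% FBS, and RNA was taken after 18 h. The labels give no genotype beyond the line and do not say whether the cultures were grown separately, so the p-values measure the spread between these libraries, which may be technical.

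The ER folds membrane and secreted proteins with the help of the Hsp70 chaperone BiP (Hspa5), its cofactors, lectin chaperones and protein disulfide isomerases. When unfolded protein builds up, the sensors IRE1 (Ern1), PERK (Eif2ak3) and ATF6 start the unfolded protein response, which raises chaperones and the machinery of ER-associated degradation, the route by which misfolded proteins are extracted and destroyed. Manf and Cdnf encode related small proteins of the ER lumen that can also be secreted and were first known as neurotrophic factors. D-serine, the mirror image of L-serine, acts at NMDA receptors together with glutamate.

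With D-serine, both genes of the MANF family rose, Cdnf by 63.2% and Manf by 21.3%, and Derl2 rose by 16.0%. Herpud1, Pdia6, Hyou1 and Atf6 fell, with changes of -12.6%, -11.7%, -10.3% and -9.75%. The abundant chaperone genes Hspa5, Hsp90b1 and Calr differed by less than 3% in either direction and did not pass the test. In all, 7 of the 37 genes (18.9%) passed the edgeR quasi-likelihood test at an adjusted p of 0.05, against 9.74% of the 13366 genes tested, with 3 genes higher (4.84% of all genes) and 4 lower (4.9%). The median log2 fold change was -0.053 over the 37 genes and 0.0053 over all genes tested. Of the 37 genes 14 were above 0 and 23 below, and of the 13366 tested 6890 were above and 6476 below. As a log2 deviation from each gene's mean over the libraries, the median of the 37 was 0.0143, 0.0418 and 0.0428 in controls 1 to 3. Under D-serine it was 0.0172, -0.0229 and -0.0318 in replicates 1 to 3, so the groups overlapped. An unadjusted p under 0.05 was found for 17 of the 37 genes and for 3769 of the 13366. Control and D-serine libraries were fully apart in 17 of the 37 genes, against 32.9% of all genes tested. In 3 of them the D-serine libraries were the higher ones (16.2% of all genes) and in 14 the lower ones (16.6%).

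**Figure D1:**
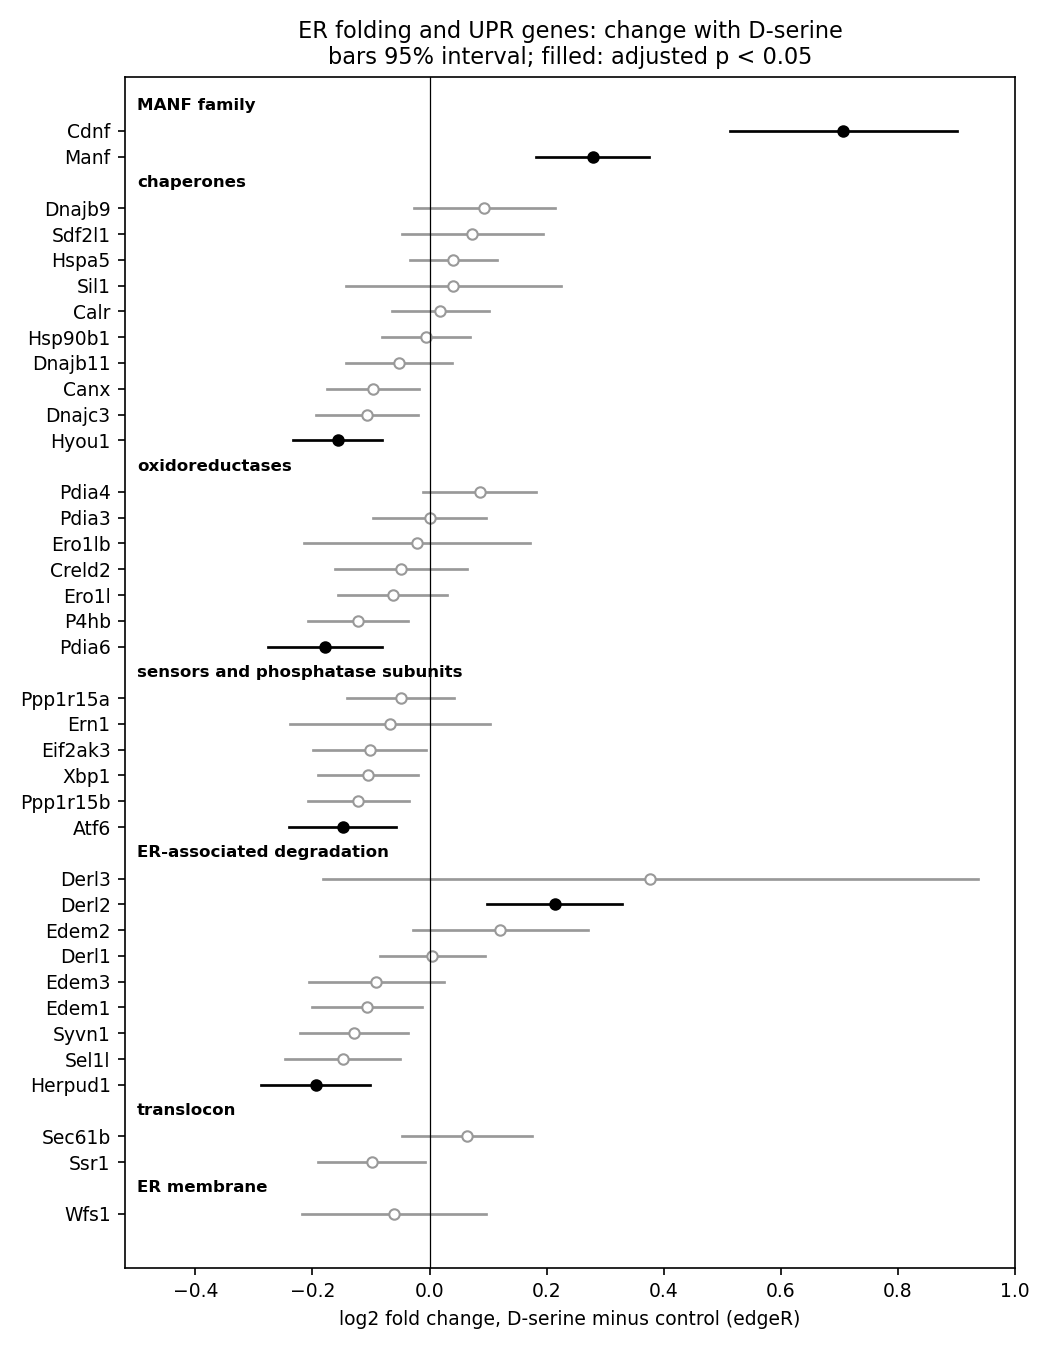
Log2 fold change of each of the 37 genes, D-serine minus control, on the x axis, with 95% intervals from the edgeR fit and the genes grouped by role on the y axis. Filled points have an adjusted p under 0.05: Cdnf, Manf and Derl2 lie to the right of 0 and Hyou1, Pdia6, Atf6 and Herpud1 to the left.

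The libraries held between 32518483 and 40024265 counts. D-serine replicate 1 stood apart from its fellows, with a chi-square statistic per degree of freedom of 17.7 and 13.9 against them, where the pairs within the control group gave 3.88 to 6.54. It also had fewer counts in long genes: the slope of its deviation from the gene means on log2 exonic length was -0.0717. That slope was 0.00581 and -0.00397 in D-serine replicates 2 and 3 and 0.0356, 0.0191 and 0.0152 in controls 1 to 3. Every D-serine slope was thus below every control slope, so the length trend runs along the contrast of the groups. Markers of the sympathoadrenal lineage of neuroblastoma summed to between 1641 and 1755 CPM (counts scaled to a common library size) in control and between 1785 and 1909 CPM under D-serine over 13 genes. Of these, Tubb3 rose from 490 ± 24.0 to 583 ± 37.0 CPM (SD, n = 3 each, edgeR adjusted p = 0.0148), and none of the other 10 genes tested passed the test. Hand2 and Gata2 were well expressed, whereas Th and Dbh were under 3 CPM and Nefl and Nefm were at or near 0. Markers of leukocytes summed to at most 1.61 CPM, of Schwann cells and glia to at most 16.2 CPM, most of it Mbp, and of fibroblasts to between 25.2 and 29.4 CPM in control and between 19.0 and 25.3 CPM under D-serine. Most of the fibroblast sum was Pdgfrb, which fell from 21.9 ± 2.04 to 17.0 ± 2.24 CPM (SD, n = 3 each, edgeR adjusted p = 0.0370). Lum, Aqp4 and Cd3e were at 0 in every library, and the part of the marker genes in the results was not tested.

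The sequences before the start sites show how the genes of this response are marked. The ER stress response element (ERSE), which is bound by ATF6 and XBP1 together with the CCAAT-binding factor NF-Y, reads CCAAT, any 9 bases and CCACG, and its shorter form ERSE-II reads ATTGG, any 1 base and CCACG. Promoters of 300 bases (250 before to 50 after the start site) were taken from RefSeq on GRCm38.p6, where 31 of the 37 genes matched with 32 promoters, and both strands were searched. An ERSE was present in 10 of these genes and an ERSE-II in 2 others, which is 38.7% of the 31 genes. Of all 32851 promoters searched, 0.155% held either motif, those of the 12 genes included. The first share counts genes and the second promoters. The 37 genes were listed as genes of this response, so the difference is a description and was not tested. No promoter was held for Hyou1, Sil1, Manf, Atf6, Ppp1r15b and Derl1. The matching sites follow, read in the direction of the motif, with the letters fixed by the motif in capitals, to show what the genes of this group share and how the spacer varies.
Hspa5, ERSE: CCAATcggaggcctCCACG
Hsp90b1, first ERSE: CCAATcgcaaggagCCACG
Hsp90b1, second ERSE: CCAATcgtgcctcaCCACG
Calr, ERSE: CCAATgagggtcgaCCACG
Canx, ERSE: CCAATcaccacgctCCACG
Dnajc3, ERSE: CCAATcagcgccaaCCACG
Pdia6, ERSE: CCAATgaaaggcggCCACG
Ero1lb, ERSE: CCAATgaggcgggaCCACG
Creld2, ERSE: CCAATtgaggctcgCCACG
Syvn1, ERSE: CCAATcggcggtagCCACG
Derl3, ERSE: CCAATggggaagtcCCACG
Dnajb11, ERSE-II: ATTGGcCCACG
Herpud1, ERSE-II: ATTGGgCCACG

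A further 4 motifs were searched. The XBP1-binding motif TGACGTGG was in none of the 31 genes (0.676% of all promoters) and the ATF4-type motif TTGCATCA was in Herpud1 only (0.895% of all promoters). The cyclic AMP response element TGACGTCA was in Ppp1r15a only (1.79%) and the E-box CACGTG, whose letters can overlap those of CCACG, was in 4 genes (7.15%). These are matches of letters, not shown binding sites. Of the 12 genes with an ERSE or ERSE-II, Pdia6 and Herpud1 were lower and none was higher at an adjusted p under 0.05 in edgeR, and the median log2 fold change was -0.051. Of the 19 with a promoter and neither motif, Cdnf and Derl2 were higher and none was lower, with a median of -0.061. Manf, which rose, and Hyou1 and Atf6, which fell, had no promoter to search and are in neither set. In 18 genes outside the list whose promoter held either motif and which were tested, 1 was higher and 1 lower, with a median of 0.047. Over all genes tested 4.84% were higher and 4.9% lower, and with 2 calls in each set no difference between the sets was tested.

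The promoters of 4 genes are printed whole, 5′ to 3′ on the strand of the gene, because they show 1 chaperone that did not pass the test, 2 genes that fell and the gene that rose most. Capitals mark the fixed letters of an ERSE, an ERSE-II or TTGCATCA.
Hspa5, chr2:34771840-34772139, plus strand: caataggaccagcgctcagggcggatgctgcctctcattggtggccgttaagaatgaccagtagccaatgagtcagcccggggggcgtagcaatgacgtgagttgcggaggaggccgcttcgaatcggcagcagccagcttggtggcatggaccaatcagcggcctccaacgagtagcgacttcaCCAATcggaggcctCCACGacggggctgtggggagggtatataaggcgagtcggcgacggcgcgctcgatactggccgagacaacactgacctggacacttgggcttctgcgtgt
Herpud1, chr8:94386179-94386478, plus strand: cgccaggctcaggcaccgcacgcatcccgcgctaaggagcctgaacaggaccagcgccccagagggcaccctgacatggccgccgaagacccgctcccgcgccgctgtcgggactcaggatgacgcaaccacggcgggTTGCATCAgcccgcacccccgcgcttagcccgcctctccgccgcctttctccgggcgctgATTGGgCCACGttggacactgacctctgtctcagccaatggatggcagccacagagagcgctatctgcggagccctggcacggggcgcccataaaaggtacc
Pdia6, chr12:17266339-17266638, plus strand: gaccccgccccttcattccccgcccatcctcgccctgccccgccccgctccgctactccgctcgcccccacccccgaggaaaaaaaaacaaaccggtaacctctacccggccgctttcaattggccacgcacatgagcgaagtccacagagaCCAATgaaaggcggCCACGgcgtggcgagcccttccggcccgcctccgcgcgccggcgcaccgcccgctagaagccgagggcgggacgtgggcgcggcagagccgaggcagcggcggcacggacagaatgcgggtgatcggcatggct
Cdnf, chr2:3512815-3513114, plus strand: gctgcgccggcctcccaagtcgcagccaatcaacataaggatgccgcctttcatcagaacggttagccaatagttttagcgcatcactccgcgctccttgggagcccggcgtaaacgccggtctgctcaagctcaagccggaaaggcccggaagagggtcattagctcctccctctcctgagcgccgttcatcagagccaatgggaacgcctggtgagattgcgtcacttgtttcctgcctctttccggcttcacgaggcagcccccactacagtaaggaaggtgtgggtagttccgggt

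In Hspa5 the site lies from 65 to 47 bases before the start site. In Pdia6 it lies from 98 to 80 bases before it, and in Herpud1 the ERSE-II lies from 52 to 42 bases before it. The Cdnf promoter held the letters CCAAT at 3 places and CCACG at none on either strand, so no ERSE was among its letters.

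Levels spanned 3 orders of magnitude. Per kilobase of exon, Hspa5 had the highest level of the 37 genes at 1542 CPM per kilobase (mean of the 6 libraries), followed by Calr at 1232 and Hsp90b1 at 792. Manf stood 12th at 176 CPM per kilobase and Cdnf 36th at 3.44, above Derl3 alone at 1.48. The remaining levels lay between these, with Sil1, Wfs1 and Ero1lb under 10 CPM per kilobase.

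**Figure D2:**
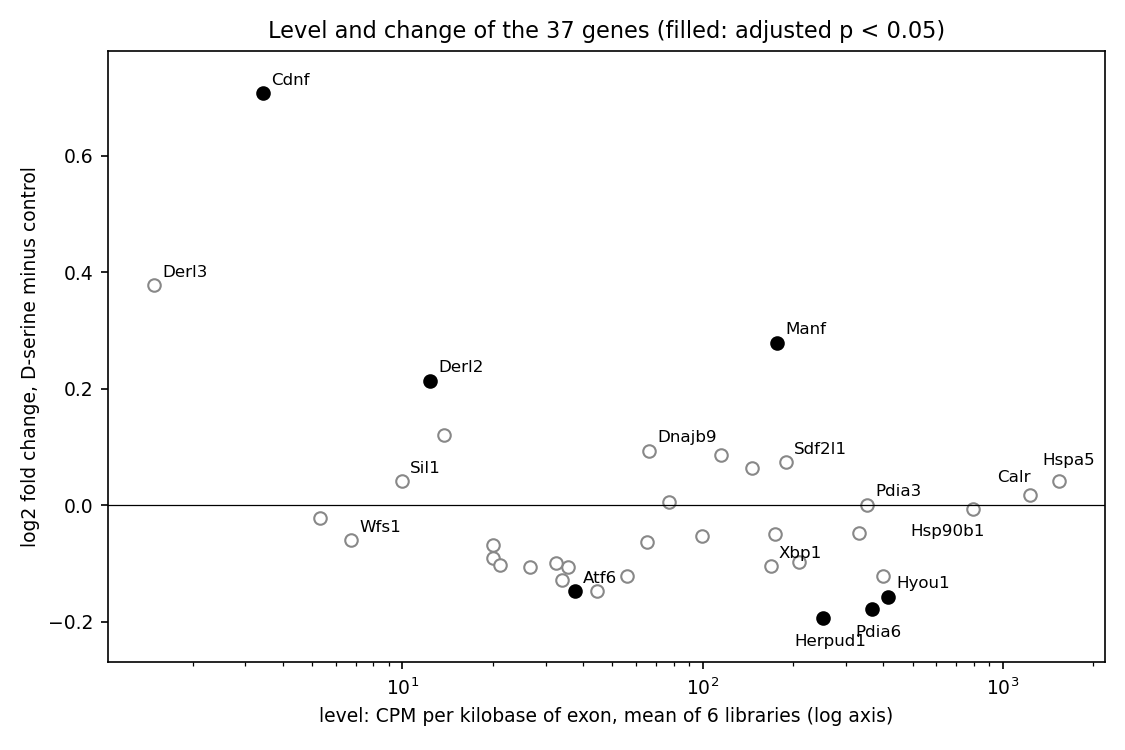
Each point is 1 of the 37 genes, with its level in CPM per kilobase of exon on a logarithmic x axis and its log2 fold change, D-serine minus control, on the y axis. Filled points have an adjusted p under 0.05. The 3 genes that rose had levels from 3.44 to 176, and the 3 most abundant genes lay near 0 on the y axis.

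Cdnf (chromosome 2, 3430337 to 3443648, plus strand in the deposited coordinates) was read 265 to 297 times in the control libraries and 469 to 536 times in the D-serine libraries. It was expressed at 8.21, 7.44 and 7.98 CPM in controls 1 to 3 and at 12.5, 12.8 and 13.3 CPM in D-serine replicates 1 to 3. Every D-serine library lay above every control library. The log2 fold change was 0.71 (SE 0.090, edgeR adjusted p = 0.00227), with a 95% interval of 42.7% to 86.7% for the increase. Cdnf was already known from an earlier look at these data as 1 of the genes that rose most, so its rank is a description.

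Manf (chromosome 9, 106789746 to 106794269, minus strand) was expressed at 341, 355 and 358 CPM in controls 1 to 3 and at 446, 407 and 426 CPM in D-serine replicates 1 to 3. Here too the groups did not overlap. The log2 fold change was 0.28 (SE 0.045, edgeR adjusted p = 0.00628), with a 95% interval of 13.5% to 29.7% for the increase. Once the trend of each library on gene length was removed, it was 0.23 for Manf (edgeR adjusted p = 0.000454). For Cdnf it was then 0.68 (edgeR adjusted p = 0.000127). Without control replicate 2 the adjusted p of Manf was 0.0501, and Cdnf kept its call without each library in turn. Neither gene shares exonic bases with another gene of the table.

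The difference between the groups was larger for Cdnf than for Manf, although 3 libraries against 3 cannot give a p under 0.1 for it. Because the rise of Cdnf in these data was already known, the ratios that hold it are descriptions. Their p-values are not independent support. Within a library, the log2 ratio of Cdnf to Manf counts was -5.37, -5.57 and -5.49 in controls 1 to 3, against -5.16, -5.00 and -5.00 in D-serine replicates 1 to 3. All 3 D-serine values lay above the control values, and the mean was -5.48 ± 0.10 in control and -5.05 ± 0.093 under D-serine (SD, n = 3 each), a 1.34-fold difference in the ratio. The exact two-sided permutation p was 0.1, the smallest possible. This ratio does not depend on how libraries are scaled, and without 1 library at a time its difference lay between 0.38 and 0.48 on the log2 scale.

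Both genes were also compared with the chaperones, for which the mean log2 count of the 10 chaperone genes of the list was used. The log2 ratio of Cdnf to the chaperones was -5.98 ± 0.077 in control and -5.26 ± 0.072 under D-serine (SD, n = 3 each), a 1.65-fold difference. The log2 ratio of Manf to the chaperones was -0.50 ± 0.023 in control and -0.21 ± 0.026 under D-serine (SD, n = 3 each), a 1.23-fold difference. In both ratios every D-serine library lay above every control library, and the exact two-sided permutation p was 0.1 for each.

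**Figure D3:**
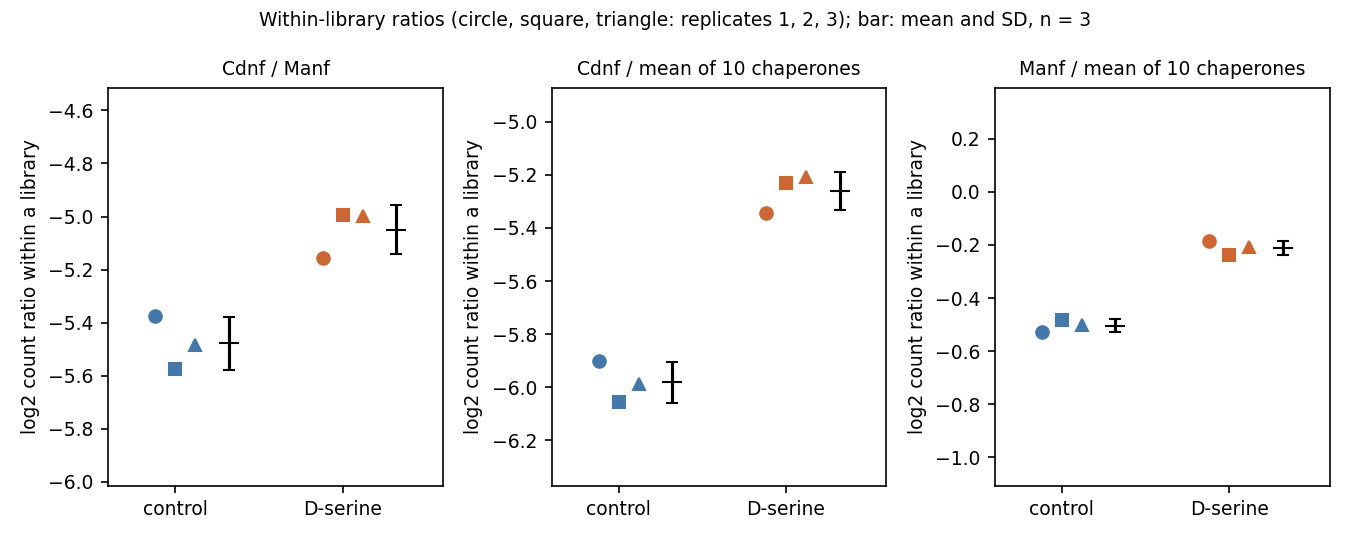
Log2 count ratio within each library on the y axis, for Cdnf to Manf, Cdnf to the mean of 10 chaperones and Manf to that mean, with controls in blue, D-serine in orange and the mean with its SD (n = 3) as a black bar. In each panel the 3 D-serine libraries lie above the 3 control libraries.

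Among the 10 chaperones, 1 fell, none rose and 9 did not pass the test (10% called, 9.74% of all genes). Hyou1 (chromosome 9, 44187573 to 44200452, plus strand), a large Hsp70-like protein that exchanges the nucleotide of BiP, was expressed at 1922, 1913 and 1966 CPM in the control libraries and at 1703, 1759.7 and 1740.0 CPM in the D-serine libraries. Its groups were well apart, and the log2 fold change was -0.16 (SE 0.035, edgeR adjusted p = 0.0187). Hspa5 itself was at 4004, 3901 and 4028 CPM in control and at 4211, 4048 and 4017 CPM under D-serine. These values overlap, and the 95% interval of the difference ran from -2.27% to 8.30% (edgeR adjusted p = 0.465).

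Hsp90b1, the ER form of Hsp90, had 2207, 2163 and 2200 CPM in control and 2232, 2149 and 2162 CPM under D-serine, with an interval from -5.44% to 4.88%. Calr, a lectin chaperone and calcium store, had 2345, 2384 and 2407 CPM in control and 2524, 2366 and 2337 CPM under D-serine, with an interval from -4.37% to 7.24%. In both genes D-serine replicate 1 was the highest library of all. Canx, the membrane-bound lectin chaperone, was at 928 ± 13.1 CPM in control and 867 ± 12.8 CPM in the D-serine group (SD, n = 3 each) and did not overlap between the groups, with an edgeR adjusted p of 0.105.

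None of the 3 J-domain proteins, which bring clients to BiP, passed the test. Dnajb9 was at 111, 126 and 121 CPM in control and at 135, 122 and 126 CPM under D-serine, with overlap between the groups (log2 fold change 0.094, edgeR adjusted p = 0.295). Dnajb11 had a log2 fold change of -0.053 and Dnajc3 of -0.11 (edgeR adjusted p = 0.439 and 0.110). Sdf2l1, a partner of Dnajb11, and Sil1, another exchange factor of BiP, had log2 fold changes of 0.073 and 0.041 and overlapped between the groups.

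Of the 7 genes of disulfide formation, Pdia6 fell and the other 6 did not pass the test (14.3% called, 9.74% of all genes). Pdia6 (chromosome 12, 17273401 to 17291576, plus strand), a disulfide isomerase that works with BiP, was expressed at 818, 808 and 849 CPM in control and at 773, 699.7 and 713 CPM under D-serine. The highest D-serine library, replicate 1, was below the lowest control library, and the log2 fold change was -0.18 (SE 0.045, edgeR adjusted p = 0.0279). It shares 50 exonic bases (2.35% of its length) with Atp6v1c2 on the opposite strand, which was expressed at 0.517 CPM in control.

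P4hb, the classical disulfide isomerase, was at 1051 ± 18.6 CPM in control and 965 ± 34.1 CPM in the D-serine group (SD, n = 3 each, edgeR adjusted p = 0.0669). Pdia4 was at 271, 275 and 286 CPM in control and 307, 293 and 283 CPM under D-serine, with overlap between the groups (log2 fold change 0.086, edgeR adjusted p = 0.229). Pdia3, which works with the lectin chaperones, had means of 932 CPM in both groups and an interval from -6.42% to 6.95%. The oxidases Ero1l and Ero1lb, which reoxidise these enzymes, and Creld2, a secreted ER protein that rises in ER stress, had log2 fold changes of -0.063, -0.021 and -0.048 (edgeR adjusted p = 0.366, 0.907 and 0.582).

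All 6 genes of the sensors and of the translational control they exert had a log2 fold change below 0, as had 6476 of the 13366 genes tested. Of the 6, 1 passed the test (16.7% called, 9.74% of all genes). The sign of these 6 genes was the same under each scaling, but without D-serine replicate 1 the log2 fold change of Ern1 was 0.035. Atf6 (chromosome 1, 172634588 to 172797902, minus strand), which is cleaved in the Golgi to release a transcription factor, was expressed at 297, 287 and 297 CPM in control and at 255, 271 and 269.8 CPM under D-serine. The groups did not overlap, and the log2 fold change was -0.15 (SE 0.042, edgeR adjusted p = 0.0444). Its exonic length of 7463 bases is the second largest of the 37, and once the trend of each library on gene length was removed its log2 fold change was -0.071 and its edgeR adjusted p 0.211. The same removal left 10 of the 37 genes called (27%, against 15.8% of all genes in that fit). It added Xbp1 (-0.15, adjusted p = 0.00592), P4hb (-0.16, adjusted p = 0.00473), Syvn1 (-0.15, adjusted p = 0.0135) and Creld2 (-0.14, adjusted p = 0.0163), all lower. Calls over all genes moved the same way, to 701 higher and 1417 lower, from 647 and 655 in the main fit. The median log2 fold change of all genes was then -0.022, against 0.0053 in the main fit.

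Eif2ak3, which encodes PERK, was at 97.1, 98.3 and 99.0 CPM in control and at 88.9, 91.9 and 93.4 CPM under D-serine, without overlap (log2 fold change -0.10, edgeR adjusted p = 0.152). Ern1, which encodes IRE1, was at 82.3, 82.5 and 80.4 CPM in control and at 66.5, 88.4 and 79.2 CPM under D-serine, so the D-serine libraries spread to both sides of the controls and replicate 1 was the lowest of all (adjusted p = 0.614). Xbp1, whose RNA is spliced by IRE1, was at 381, 393 and 401 CPM in control and at 368, 362 and 363 CPM under D-serine (log2 fold change -0.10, adjusted p = 0.106). Counts per gene do not separate spliced from unspliced Xbp1.

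Ppp1r15a and Ppp1r15b encode the regulatory subunits of the phosphatase that reverses the action of PERK. Ppp1r15a, the inducible one, was at 402, 412 and 421 CPM in control and at 412, 398 and 383 CPM under D-serine, with overlap (log2 fold change -0.049, edgeR adjusted p = 0.473). Ppp1r15b was at 326 ± 3.73 CPM in control and 299 ± 7.45 CPM in the D-serine group (SD, n = 3 each, edgeR adjusted p = 0.0709).

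Of the 9 genes of ER-associated degradation, Derl2 rose, Herpud1 fell and 7 did not pass the test (22.2% called, 9.74% of all genes). Herpud1 (chromosome 8, 96910400 to 96919258, plus strand), a membrane protein that assembles the HRD1 ubiquitin ligase complex, was expressed at 487, 504 and 520.3 CPM in control and at 458, 430.0 and 433 CPM under D-serine. It had the lowest log2 fold change of the 37 genes, -0.19 (SE 0.043, edgeR adjusted p = 0.0183), and no overlap between the groups. Derl2 (chromosome 11, 70820942 to 70833343, minus strand), a derlin of the channel through which proteins leave the ER, was expressed at 49.6, 46.9 and 46.7 CPM in control and at 57.6, 53.2 and 55.1 CPM under D-serine. The log2 fold change was 0.21 (SE 0.054, edgeR adjusted p = 0.0279), again without overlap. Derl2 shares 231 exonic bases (5.56% of its length) with Mis12 on the opposite strand, whose log2 fold change was 0.0017.

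The other derlins did not pass the test. Derl1 was at 243 ± 3.86 and 244 ± 7.28 CPM (SD, n = 3 each), with an interval from -5.71% to 6.79%. Derl3 had the lowest level of the 37 genes, at 1.73 ± 0.65 and 2.23 ± 0.28 CPM (SD, n = 3 each). It was read 48 to 92 times in each library, and its interval from -11.9% to 91.5% leaves its direction undetermined. Sel1l and Syvn1, the adaptor and the ligase of the HRD1 complex, had log2 fold changes of -0.15 and -0.13 without overlap between the groups and edgeR adjusted p-values of 0.0568 and 0.0705. Of the Edem genes, whose products trim the glycans of misfolded proteins, Edem1 and Edem3 had log2 fold changes of -0.11 and -0.091 and Edem2 of 0.12 (edgeR adjusted p = 0.130, 0.287 and 0.275).

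The last 3 genes did not pass the test. Sec61b encodes a part of the channel through which proteins enter the ER, and Ssr1 a subunit of the translocon-associated complex. Their log2 fold changes were 0.064 and -0.099 (edgeR adjusted p = 0.446 and 0.146). Wfs1, an ER membrane protein that is mutated in Wolfram syndrome, was at 24.6 ± 2.02 CPM in control and 23.6 ± 0.73 CPM in the D-serine group (SD, n = 3 each, adjusted p = 0.626).

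**Figure D4:**
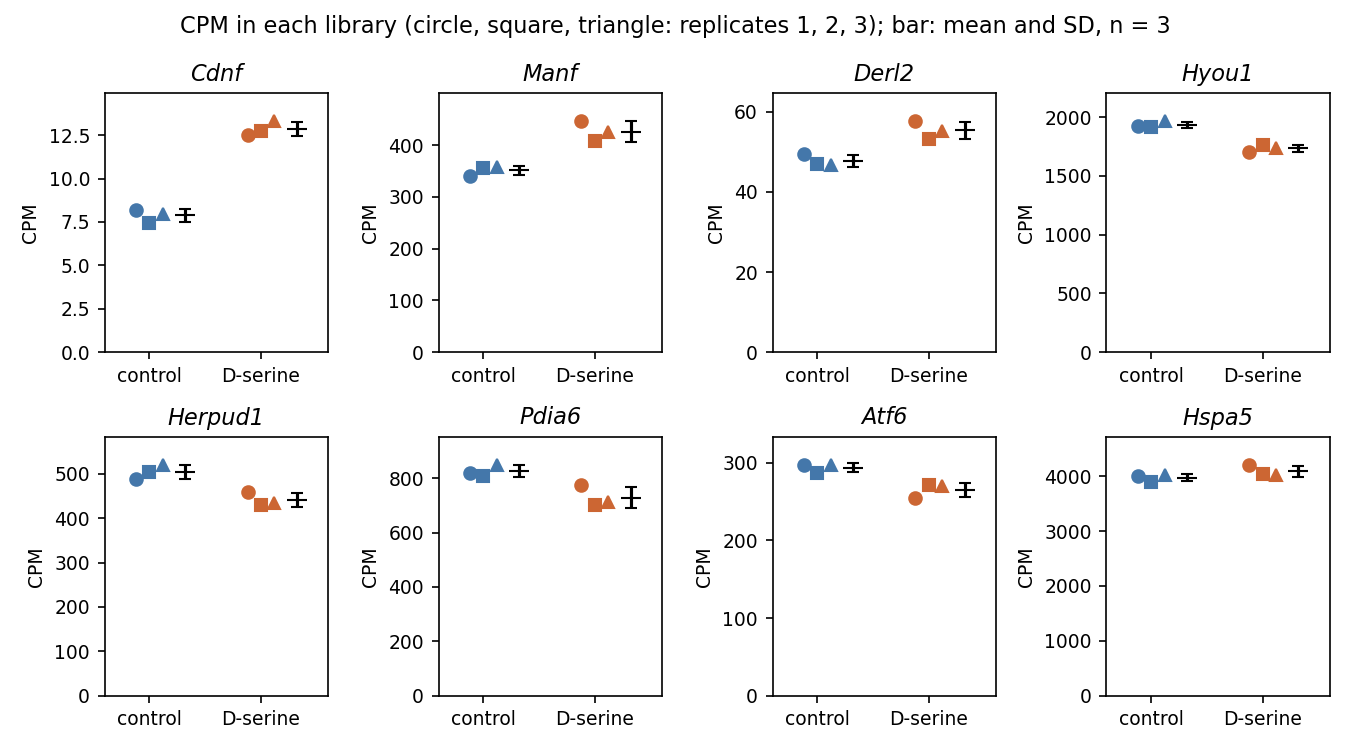
CPM on the y axis, starting at 0, in each of the 3 control (blue) and 3 D-serine (orange) libraries for the 7 genes with an adjusted p under 0.05 and for Hspa5, with the mean and SD (n = 3) as a black bar. The groups are apart in the first 7 panels and overlap for Hspa5, at 3901 to 4028 against 4017 to 4211 CPM.

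The calls of Derl2, Hyou1 and Herpud1 were each lost without control replicate 1, control replicate 2, control replicate 3 or D-serine replicate 3, with highest edgeR adjusted p-values of 0.120, 0.0898 and 0.0898. They were also lost with the replicate block. Calls over all genes fell as well, from 9.74% to 0.921%, 0.501%, 3.34% and 2.15% without those libraries in turn and to 2.23% with the block. Pdia6 and Atf6 were lost in all those fits too, and also when libraries were scaled by upper quartile or by library totals. Their highest values over all 16 alternatives were 0.109 and 0.266. Pdia6 was lost without D-serine replicate 2 as well. Without D-serine replicate 1, the library that stood apart, 14 of the 37 genes were called (37.8%, against 12.5% of all genes in that fit), all 7 genes above and 7 further genes that were lower: Creld2, P4hb, Ppp1r15b, Sel1l, Ssr1, Syvn1 and Xbp1.

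Other genes of the same pathways were read from 6 further lists with 87 genes in the table, of which 85 were tested. An edgeR adjusted p under 0.05 was found for 9 (10.6%, against 9.74% of all genes), 2 higher and 7 lower, and the median log2 fold change was -0.014. Among 20 genes of the translocon and signal peptidase, Ssr4 and Sec61a2 rose (10% called, 9.74% of all genes). Ssr4, a subunit of the translocon-associated complex, went from 21.2 ± 0.32 to 27.8 ± 1.02 CPM (SD, n = 3 each), with a log2 fold change of 0.39 (edgeR adjusted p = 0.00694). Sec61a2, a form of the channel's main subunit, went from 65.9 ± 0.41 to 76.8 ± 2.41 CPM (log2 fold change 0.22, adjusted p = 0.0166). The Ssr4 call was lost without control replicate 2 (adjusted p = 0.0501), and that of Sec61a2 was lost in 5 of its 16 alternatives (highest adjusted p 0.0757). The log2 fold change of Ssr4 lay between 0.27 and 0.42 over its 16 alternatives.

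In the next 4 lists the called genes were lower. They made up 10% to 13.3% of the tested genes of each list, against 9.74% of all genes called and 4.9% called lower. Of 15 genes of N-glycosylation and the calnexin cycle, the cargo lectin Lman2 (log2 fold change -0.19, edgeR adjusted p = 0.0137) and the oligosaccharyltransferase subunit Stt3b (-0.14, adjusted p = 0.0485) fell. Of 15 tested thiol oxidoreductases outside the 37, Txndc5 (-0.19, adjusted p = 0.0166) and Qsox1 (-0.25, adjusted p = 0.0192) fell. Of 20 further genes of ER-associated degradation, Herpud2 (-0.22, adjusted p = 0.0429) and Ube2j2 (-0.37, adjusted p = 0.0441) fell, but Ube2j2 shares 32.6% of its exonic length with Gm5801 on the same strand and its count is uncertain. Of 8 genes of ATF6-like factors and their proteases, Mbtps2, which encodes the site-2 protease that cleaves ATF6, was lower at 70.0 ± 3.74 CPM than the 80.2 ± 2.82 CPM of controls (SD, n = 3 each), a log2 fold change of -0.20 (edgeR adjusted p = 0.0384). Each of these 7 calls was lost with the replicate block and without control replicate 1, control replicate 2, control replicate 3 or D-serine replicate 3. Those fits called between 0.501% and 3.34% of all genes tested. Of the 16 alternatives, Lman2, Txndc5 and Qsox1 were called in 11, Mbtps2 in 9, Herpud2 in 8, Stt3b in 7 and Ube2j2 in 5, and Ube2j2 was lost with DESeq2, with limma-voom and without any 1 of the 6 libraries. The highest adjusted p over the alternatives lay between 0.0718 and 0.196.

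None of the 7 genes downstream of PERK passed the test at an edgeR adjusted p under 0.05, and 5 had an unadjusted p under 0.05 (3769 of the 13366 genes tested did). Atf4, the transcription factor whose translation PERK favours, was at 1041 ± 16.7 CPM in control and 1169 ± 90.5 CPM in the D-serine group (SD, n = 3 each), with a log2 fold change of 0.17 (edgeR adjusted p = 0.0527). Ddit3, which encodes CHOP, had a log2 fold change of 0.11 and its target Trib3 of -0.11 (adjusted p = 0.128 and 0.125). Atf3 was at 0.17 and Sesn2 at -0.14 on the same scale (adjusted p = 0.0849 and 0.0967), and Chac1 and Nupr1 were at -0.044 and 0.039 (adjusted p = 0.531 and 0.654).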

How the data were processed

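The authors deposited raw counts per gene for 6 libraries, with the summed exonic length, in the column layout of featureCounts per the file headers. The submitters' processing notes name bcl2fastq, Trim Galore, HISAT2, featureCounts, Subread, DESeq2, GRCm38 and mm10, without versions or roles. Libraries were stranded TruSeq mRNA and paired-end, per the labels' protocols. The strand setting is not given in the sources used here, so exonic overlap on either strand was counted. Gene coordinates are those of the deposited table, 1-based, whose build is not named there: 1 of the 37 genes had the same start as in RefSeq GRCm38, and Cdnf starts 82728 bases away. Promoter coordinates are GRCm38.p6.

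Columns named vehicle and a number were taken as the equally numbered controls. Counts were tested with edgeR 4.0.16 (R 4.3.3): filterByExpr, TMM scaling, quasi-likelihood F test, no covariate, Benjamini-Hochberg adjustment over 13366 genes, two-sided, threshold 0.05. The SE is the log2 fold change divided by the square root of F. The common coefficient of biological variation was 5.77%. CPM are the deposited counts over the TMM-adjusted library size. Ratios used log2 of counts plus 0.5. The fit was tested on simulated data, with a length trend planted in D-serine replicate 1 and in no other library. A length trend that separates the groups in every library, as seen here, was not simulated. Alternatives were DESeq2 1.42.0, limma-voom (limma 3.58.1), 3 other scalings, no filter, a mean of 50 counts, the replicate block, removal of each library's spline on exonic length (5 degrees of freedom), both together, and each library left out.

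The 37 genes and the lists were chosen with earlier results of these data known. Values in every library are given for Cdnf, Manf, each of the 37 genes with an adjusted p under 0.05 and 11 set by name. Of the further lists, genes with an adjusted p under 0.05 are named, up to 4 a list, and the 7 genes downstream of PERK were named after their values were seen. A gene of the degradation list whose symbol the table holds as a date was not used. Some genes of the cell type marker lists are not reported here and were left out of the sums.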

Additional observations from a re-analysis of the deposited data

How the results depend on the processing

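Cdnf, Manf, Derl2, Herpud1, Hyou1, Pdia6 and Atf6 kept their sign in all 16 alternatives. The log2 fold change changed sign in 35 values of 10 other genes, and none of these 35 values passed the test. Under upper quartile scaling and library totals it was 0.024 and 0.023 for Hsp90b1 and 0.0085 and 0.0082 for Ero1lb. With the length trend removed, without and with the replicate block, it was -0.032 and -0.036 for Sil1, -0.034 and -0.033 for Sdf2l1, -0.041 and -0.041 for Calr, -0.036 and -0.037 for Pdia3, -0.024 and -0.024 for Derl1, -0.051 and -0.052 for Sec61b, and 0.012 and 0.0049 for Ssr1. Pdia3, at about 0, was also at -0.0036 with DESeq2, -0.00085 with limma-voom, -0.0027 with DESeq2 size factors and -0.00076 with the replicate block. With 1 library left out at a time the values ran from -0.023 to 0.0052 for Hsp90b1, -0.015 to 0.11 for Sil1, -0.017 to 0.039 for Calr, -0.047 to 0.027 for Pdia3, -0.12 to 0.075 for Ero1lb, -0.17 to 0.035 for Ern1 and -0.018 to 0.025 for Derl1. Counts of calls did move. Among the 37 genes, DESeq2 called 7 lower, upper quartile scaling and library totals 2 lower each, and length trend removal 7 lower, also with the replicate block. Over all genes, DESeq2 called 685 higher and 905 lower of 11939 tested. Length trend removal called 701 higher and 1417 lower of 13366, and 638 and 1249 with the replicate block. With upper quartile scaling or library totals the split of the 37 was 3 higher to 2 lower, against 3 to 4 with TMM. Over all genes it was 914 to 412 and 944 to 412 with these 2 scalings. The median log2 fold change of the 37 genes was -0.023 under both, while that of all genes was 0.035 and 0.034. Length trend removal called 2118 genes in all and 24 of the further ER genes (19 with the replicate block). With 1 library left out at a time, calls ranged from 68 to 1699 for all genes, 1 to 14 for the 37 genes (1 to 3 higher, 0 to 11 lower) and 0 to 17 for the further ER genes. The lowest counts came without control replicate 2 and the highest without D-serine replicate 1. The median of the 37 ranged from -0.064 to -0.042. Differences in log2 ratio ranged from 0.38 to 0.48 for Cdnf to Manf, 0.68 to 0.76 for Cdnf to chaperones and 0.28 to 0.31 for Manf to chaperones. The cause was not tested. Deviations of same-numbered libraries correlated at -0.069, 0.020 and -0.019. With 3 libraries a group this does not settle whether same-numbered libraries were prepared together. The replicate block gave 298 genes, 2 of the 37 (Cdnf and Manf, 2 higher and 0 lower) and 1 further ER gene, and a difference in Cdnf to Manf of 0.43 (exact sign-flip p = 0.25, the smallest possible). Of 6 libraries, 1 correlated best with its own number. Derl3 was low, at 1.29 to 2.48 CPM and 48 to 92 counts in each library.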
